A study of Mus musculus with 10 samples.

Results

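*Rgs16*, 3 other genes of regulators of G protein signalling (*Rgs3*, *Rgs5* and *Rgs12*) and 6 genes of G alpha subunits (*Gnai1*, *Gnai2*, *Gnai3*, *Gnaq*, *Gna11* and *Gnas*) were examined in the livers of AAV8-Control *db/db* mice. These are 10 of the 15126 genes in the deposited table. *Rgs16* was selected on its measured CPM differences between libraries of the series, and the others were chosen as its relatives and as G alpha subunits of liver. For this reason the levels, their order and their spread are given as a description, with no test of a difference between genes. The libraries came from 5 AAV8-Control mice of the *db/db* strain, which lacks a working leptin receptor, at 10 weeks of age and 5 weeks after infection. These mice received adeno-associated virus of serotype 8 with eGFP by tail vein, and the promoter in the vector is not given in the sources used here. The labels give liver as the tissue, but their protocol fields describe cultured hepatocytes given adenovirus, while the study's methods describe livers of injected mice.

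Levels are CPM, a gene's reads scaled to the total reads counted on genes in its library. In the 5 libraries 1 read was 0.0282 to 0.0513 CPM, which gives totals of 19499795 to 35498596 reads if no further scaling was applied. The listed genes held 97.8 to 98.3% of these totals. Hepatocyte markers summed to 96431 to 131120 CPM. Markers of Kupffer cells and macrophages (133.7 to 269.6 CPM), of sinusoidal endothelium (138 to 285 CPM) and of stellate cells and pericytes (88.1 to 134 CPM) were present in every library. Markers of T, B and natural killer cells (1.50 to 4.72 CPM), neutrophils (0.435 to 1.83 CPM) and cholangiocytes (33.5 to 53.9 CPM) were at lower levels. Of the listed genes present in the deposited table, none was at 0 in all 5 libraries, but 1 read is enough for that. From the sums above, the RNA held markers of several liver cell types. In such bulk RNA, fewer cells of a type and less RNA per cell cannot be told apart.

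A heterotrimeric G protein is switched on when a receptor makes its alpha subunit exchange GDP for GTP, and it switches itself off by hydrolysing that GTP. RGS proteins speed up the hydrolysis and so shorten the signal. RGS16, RGS3 and RGS5 belong to the R4 family, whose members act on alpha subunits of the Gi and Gq classes but not of Gs, and RGS12 belongs to the R12 family and acts on the Gi class. Gi subunits inhibit adenylyl cyclase, Gq and G11 activate phospholipase C beta, and Gs stimulates adenylyl cyclase, the route by which glucagon acts in hepatocytes. In mouse liver, *Rgs16* is known as a gene whose mRNA follows feeding and as a target of ChREBP, the carbohydrate response factor.

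*Rgs16* (ENSMUSG00000026475) spans bases 153740349 to 153745468 of chromosome 1 in GRCm38 and is read forward, and its single annotated transcript has 2339 exon bases in 5 exons. *Rgs5* (ENSMUSG00000026678) is read in the same direction on the same chromosome, from 169655501 to 169695813. The RefSeq promoter table used, on GRCm38.p6, matched 9 of the 10 genes. The stretches just before the first annotated base of these genes are shown because they are the pair of *Rgs* genes with the most reads in these livers, and they differed in how much they varied between livers. They are chr1:153740103-153740348 for *Rgs16* and chr1:169655251-169655500 for *Rgs5*, both on the forward strand and printed 5′ to 3′, with motif matches in capitals.
Rgs16: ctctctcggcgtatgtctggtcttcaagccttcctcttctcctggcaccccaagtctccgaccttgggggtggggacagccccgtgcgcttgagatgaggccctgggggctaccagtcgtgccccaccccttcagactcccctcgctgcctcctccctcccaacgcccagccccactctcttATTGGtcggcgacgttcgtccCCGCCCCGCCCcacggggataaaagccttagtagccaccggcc
Rgs5: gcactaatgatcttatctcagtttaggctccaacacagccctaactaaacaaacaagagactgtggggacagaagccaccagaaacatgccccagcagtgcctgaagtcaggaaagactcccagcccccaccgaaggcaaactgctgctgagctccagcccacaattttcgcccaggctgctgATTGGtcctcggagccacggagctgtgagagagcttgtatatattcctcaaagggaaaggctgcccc
Of these bases, 65.9% in *Rgs16* and 53.6% in *Rgs5* are G or C. The letters searched, on both strands, were those of the E box (CACGTG), the CCAAT box (its own letters), the TATA box (TATAAA), the GC box (GGGCGG), the cyclic AMP response element (TGACGTCA) and the D box (TTATGTAA). Both stretches hold the CCAAT letters on the reverse strand, at -68 to -64 in *Rgs16* and -67 to -63 in *Rgs5*, counted from the RefSeq start site of each gene. For *Rgs16* that site is base 153740353, 4 bases after the first annotated base given above, and for *Rgs5* both are the same base. The *Rgs16* stretch also holds a pair of GC boxes on the reverse strand, at -47 to -42 and -42 to -37, which share 1 base. The *Rgs5* stretch holds no GC box. Of 32851 RefSeq promoters of 300 bases, 37.4% hold CCAAT and 35.7% hold the GC box. The E box, found in 7.15% of promoters, is in neither stretch. Only these exact letters were searched, so a site with other letters, or outside the stretches, would not be found.

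*Rgs16* was the most variable of the 10 genes between livers. It was at 44.3, 159, 97.9, 89.2 and 56.1 CPM in AAV8-Control replicates 1 to 5. Replicate 2 was the highest and replicate 1 the lowest, a span of 3.60 times, while replicates 3 and 4 lay close together near the middle. The mean was 89.3 ± 45.0 CPM (SD, n = 5), a coefficient of variation of 50.3%, from 863 to 3476 reads per library. Without replicate 2, it was 71.8 ± 25.8 CPM (SD, n = 4), a span of 2.21 times, and its coefficient of variation (35.8%) was close to that of *Rgs3* (35.4%). Replicate 2 was also the highest in the summed markers of Kupffer cells and macrophages (269.6 CPM), of T, B and natural killer cells (4.72 CPM), of stellate cells and pericytes (134 CPM) and of cholangiocytes (53.9 CPM). Hepatocyte markers were lowest in replicates 1 and 5 (96431 and 104082 CPM), the livers with the lowest *Rgs16*, and highest in replicate 4 (131120 CPM). Sinusoidal endothelial markers were highest in replicate 1 (285 CPM, against 196 CPM in replicate 2) and neutrophil markers in replicate 3 (1.83 CPM, against 0.674 CPM in replicate 2). Replicate 1, the lowest in *Rgs16*, had the next highest stellate cell and pericyte sum (116 CPM). The part of other cell types in the *Rgs16* values was not tested.

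*Rgs5*, a gene known from pericytes and vascular smooth muscle, varied much less. It was at 42.3, 44.7, 37.7, 34.3 and 43.8 CPM in replicates 1 to 5, with a mean of 40.6 ± 4.43 CPM (SD, n = 5). Its lowest liver was replicate 4, which was also the lowest in the summed stellate cell and pericyte markers (88.1 CPM), and its highest was replicate 2, the highest in those markers. Their part in the *Rgs5* values was not tested.

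*Rgs12*, which encodes a large protein with further domains beside its RGS domain, was at 7.44, 5.01, 5.58, 5.65 and 5.75 CPM, and replicate 1 stood above the other 4 livers. *Rgs3*, whose product acts on Gi and Gq like RGS16, was at 4.21, 3.08, 2.85, 1.75 and 2.66 CPM. Here too replicate 1 was the highest, and replicate 4 was the lowest. The means were 5.88 ± 0.914 CPM for *Rgs12* and 2.91 ± 0.883 CPM for *Rgs3* (SD, n = 5), and only 48 to 101 reads per library gave the values of *Rgs3*. *Rgs16* and *Rgs12* thus had their extremes in opposite libraries, since replicate 1 was the lowest in *Rgs16* and the highest in *Rgs12*, and replicate 2 the reverse.

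**Figure D1:**
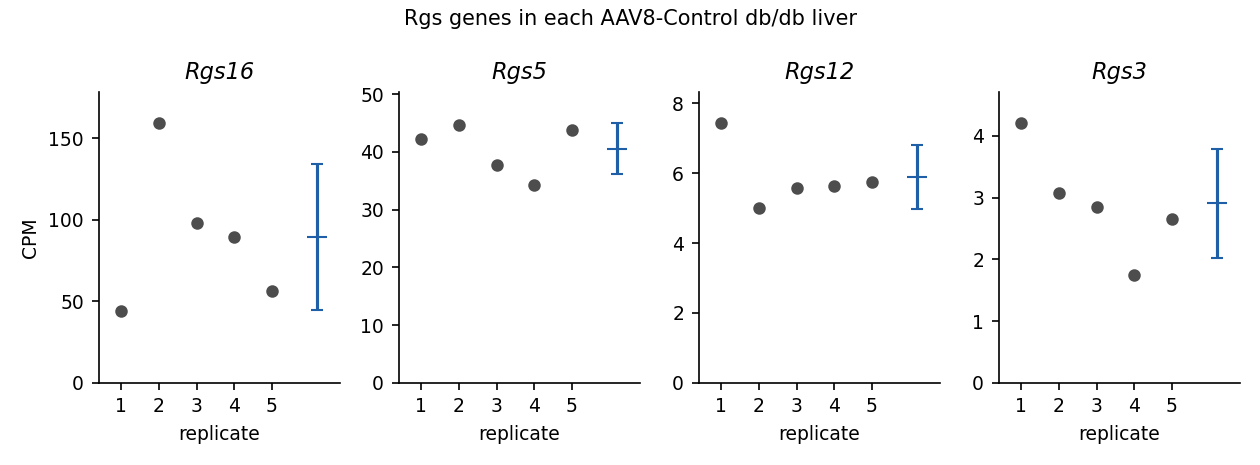
Levels of the 4 *Rgs* genes in CPM (y axis, a separate linear scale from 0 for each gene) in AAV8-Control replicates 1 to 5 (x axis). Points are livers, and the bar at the right of each panel is the mean with SD. *Rgs16* runs from 44.3 to 159 CPM, while *Rgs5* stays between 34.3 and 44.7 CPM.

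The table lists 18 *Rgs* genes, of which 8 averaged 1 CPM or more. *Rgs16* held 41.9, 70.7, 63.3, 64.6 and 48.0% of the CPM summed over these 18 genes in replicates 1 to 5. The other 17 genes summed to 48.8 to 65.9 CPM, a narrower range than that of *Rgs16* alone. Per kilobase of exon, *Rgs16* was 2.03 to 6.92 times the level of *Rgs5*, so it exceeded *Rgs5* in every liver.

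Of 5 further R4 family genes in the table, *Rgs4* and *Rgs2* averaged 1 CPM or more. *Rgs4* was at 1.59, 3.51, 3.58, 1.49 and 3.14 CPM, and *Rgs2*, whose product is selective for Gq, at 1.85, 4.09, 2.87, 1.90 and 1.93 CPM, from 31 to 127 and 36 to 102 reads per library. *Rgs4* was low in replicates 1 and 4 and *Rgs2* in replicates 1, 4 and 5. Of this pair, *Rgs2* had its highest value in replicate 2. Of 9 further genes of the other *Rgs* families, *Rgs19* and *Rgs10*, whose products act on Gi, averaged 1 CPM or more. *Rgs19* was at 1.48 ± 0.244 CPM and *Rgs10* at 1.22 ± 0.344 CPM (SD, n = 5). *Rgs10* reached 1.83 CPM in replicate 2 and lay between 0.986 and 1.11 CPM in the other 4 livers, from 21 to 38 reads per library.

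Of the Gi subunits, on which RGS16 acts, *Gnai2* and *Gnai3* varied least of the 10 genes relative to their means, except that *Rgs12* fell below *Gnai2* without replicate 1 and *Gnaq* did without replicate 5. *Gnai2* was at 122, 119, 128, 108 and 119 CPM in replicates 1 to 5, a mean of 119 ± 7.07 CPM (SD, n = 5). *Gnai3* was at 86.3, 80.0, 86.3, 88.0 and 88.2 CPM, a mean of 85.7 ± 3.32 CPM (SD, n = 5). The lowest *Gnai3* value was in replicate 2, the library with the highest *Rgs16*, and the other 4 livers lay within 86.3 to 88.2 CPM. *Gnai1*, the scarcest Gi subunit here, was at 1.64, 1.83, 1.72, 1.13 and 1.45 CPM, from 30 to 61 reads per library. Per kilobase of exon, *Gnai2* held 51.2 to 55.6% of the summed level of the 3 Gi genes, and *Gnai3* held most of the rest.

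The Gq class is the other substrate of RGS16. *Gna11* was at 94.5, 78.0, 84.6, 69.9 and 80.0 CPM in replicates 1 to 5, and *Gnaq* at 22.2, 19.6, 20.0, 19.1 and 23.7 CPM. Replicate 4 was the lowest in both genes, while the highest was replicate 1 for *Gna11* and replicate 5 for *Gnaq*. The means were 81.4 ± 9.06 CPM and 20.9 ± 1.92 CPM (SD, n = 5). Per kilobase of exon, *Gna11* was 5.10 to 6.44 times *Gnaq*.

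*Gnas*, which encodes the Gs alpha subunit, was at 14.3, 9.63, 11.9, 9.40 and 9.38 CPM in replicates 1 to 5. Replicates 1 and 3 were high, and the other 3 livers lay close together. The mean was 10.9 ± 2.15 CPM (SD, n = 5). The locus is imprinted and makes further transcripts, and 8.83% of its exon bases are shared with the antisense gene *Nespas* and 13.1% with *Gm20721*, both on the other strand. The library steps described do not mark strand, so reads in these bases cannot be assigned to a strand. Only unambiguous reads were counted, so reads in shared bases may have been left out, and their number is not known. The same holds for 10.1% of the exon bases of *Rgs16*, shared with the antisense gene *Gm28513*, and for 5.50% of those of *Rgs12*.

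**Figure D2:**
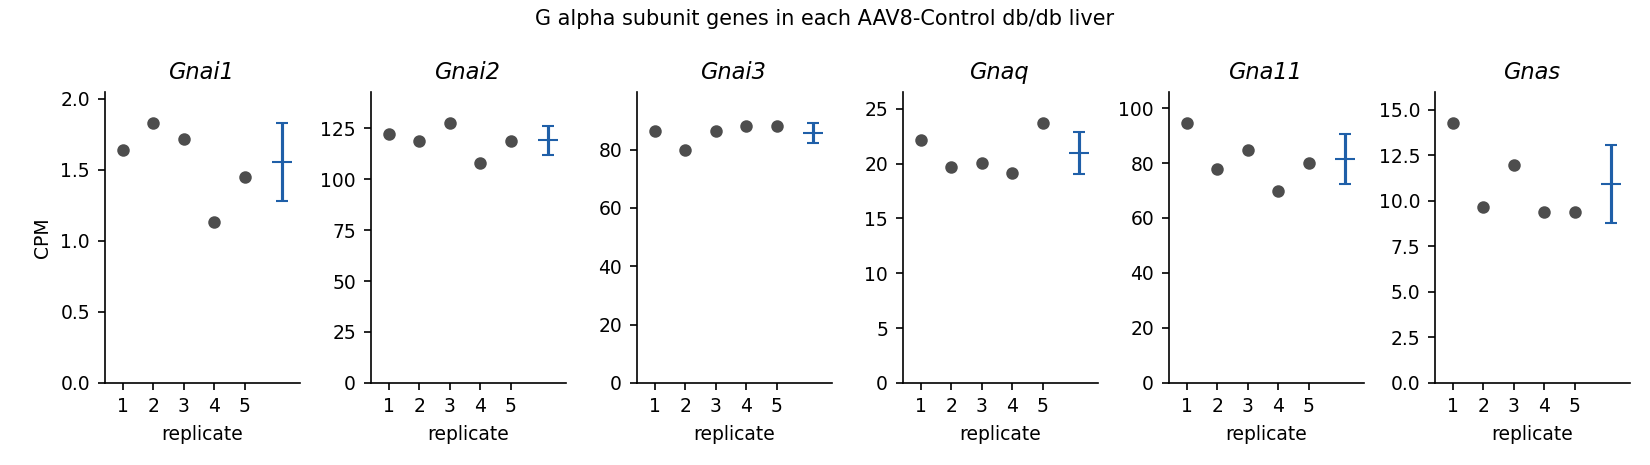
Levels of the 6 G alpha subunit genes in CPM (y axis, a separate linear scale from 0 for each gene) in AAV8-Control replicates 1 to 5 (x axis). Points are livers, and the bar at the right of each panel is the mean with SD. *Gnai2* and *Gnai3* are nearly level across livers, and *Gnas* is highest in replicate 1 at 14.3 CPM.

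Per kilobase of exon the 10 genes spanned a wide range. *Rgs16* had the highest mean, 38.2 ± 19.2 CPM per kb, followed by *Gnai2* (31.5), *Gnai3* (26.3), *Gna11* (19.9) and *Rgs5* (8.92). *Gnaq* (3.38), *Gnas* (0.976), *Rgs12* (0.693), *Gnai1* (0.496) and *Rgs3* (0.269 CPM per kb) followed. *Rgs16* and *Gnai2* overlapped, and *Rgs16* was the higher in 3 of 5 livers. Without replicate 2 the mean of *Rgs16* was 30.7 and that of *Gnai2* 31.5 CPM per kb, so the first place of *Rgs16* rests on that library. The ranges of *Gnas* and *Rgs12* overlapped, as did those of *Gnai1* and *Rgs3*, although the first gene of each pair was the higher in all 5 livers. All other neighbours in the order stood apart. Exon lengths are those of all annotated transcripts joined, which lowers the value of genes with many transcripts. *Gnas* has 24, *Rgs12* 18 and *Rgs3* 17. Before division by length, *Rgs3* (mean 2.91 CPM) was above *Gnai1* (mean 1.55 CPM) in every liver, so its last place rests on its exon length.

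**Figure D3:**
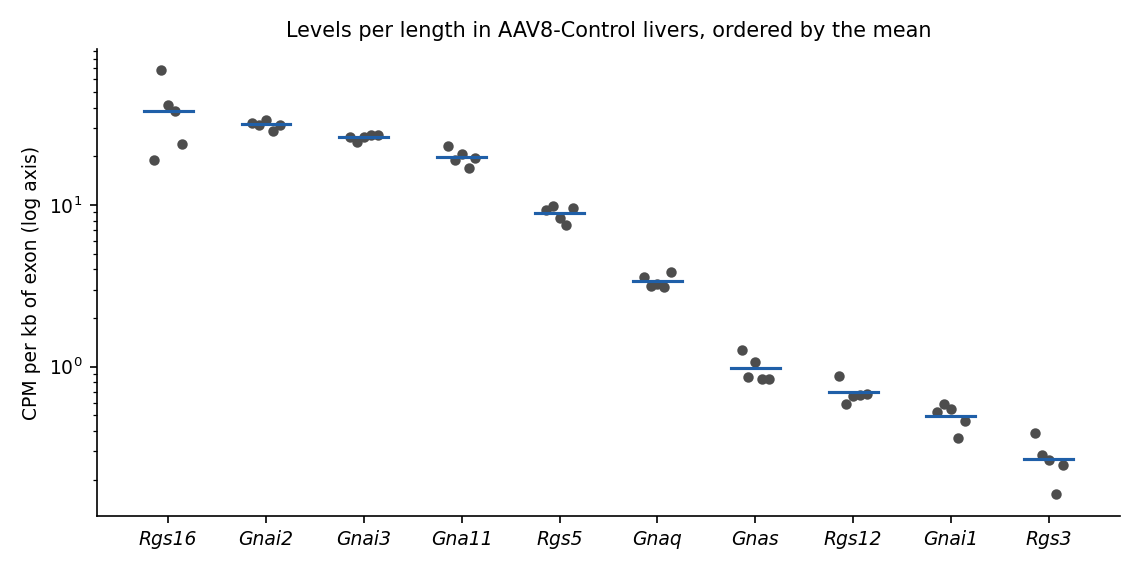
Level of each gene in CPM per kilobase of exon (y axis, log scale), ordered from left to right by the mean over the 5 AAV8-Control livers. Points are livers and lines are means. The points of *Rgs16* extend above and below those of *Gnai2*, and *Rgs3* has the lowest mean at 0.269 CPM per kb.

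Summed by class, the Gi genes held 58.3 ± 2.0 CPM per kb, *Gnaq* and *Gna11* together 23.2 ± 2.38 CPM per kb and *Gnas* 0.976 ± 0.192 CPM per kb (SD, n = 5). The *Gnas* value is divided by the exons of all transcripts of its complex locus. Reads in the bases it shares with genes on the other strand may also have been left out. Its level may therefore be too low, and by how much was not tested. The Gi sum (at least 56.0) was above the *Gnaq* and *Gna11* sum (at most 26.7 CPM per kb) in every liver.

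The spread between livers was compared with that of other genes. Over the 11041 genes that averaged 1 CPM or more in these 5 livers, the median SD of log2(CPM + 1) was 0.14. The SD of *Rgs16* was 0.71, larger than that of 99.6% of these genes and of 99.1% of the 461 genes within 1.2-fold of its mean level. These livers are among the libraries on whose values *Rgs16* was selected, so its place is a description and supports nothing further. *Rgs3* (SD 0.33) exceeded 86.8% and *Gnas* (SD 0.25) 86.8% of the genes of like level. *Gnai3* (SD 0.056) exceeded 10.1% and *Gnai2* (SD 0.086) 31.4%. With each library left out in turn, these shares ran from 0.41 to 26.7% for *Gnai3* and from 9.63 to 55.4% for *Gnai2*. *Rgs5* (SD 0.16), *Gna11* (0.16), *Rgs12* (0.18), *Gnaq* (0.12) and *Gnai1* (0.16) exceeded from 29.8% of such genes for *Gnai1* to 75.7% for *Rgs5*. With 1 library left out, the range widened from 10.1% for *Gnai1* without replicate 4 to 86.4% for *Rgs5* without replicate 1. That of *Rgs12* alone ran from 11.7 to 69.6%. At 48 to 101 reads, counting error is part of the spread of *Rgs3*, and that part was not estimated. In several of these genes 1 liver set much of the spread. The SD fell to 0.25 for *Rgs3*, 0.076 for *Rgs12* and 0.15 for *Gnas* without replicate 1. The SD was 0.54 for *Rgs16* and 0.017 for *Gnai3* without replicate 2. Without replicate 4 it was 0.088 for *Gnai1*, 0.049 for *Gnai2* and 0.23 for *Rgs3*, lower for *Rgs3* than without replicate 1.

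**Figure D4:**
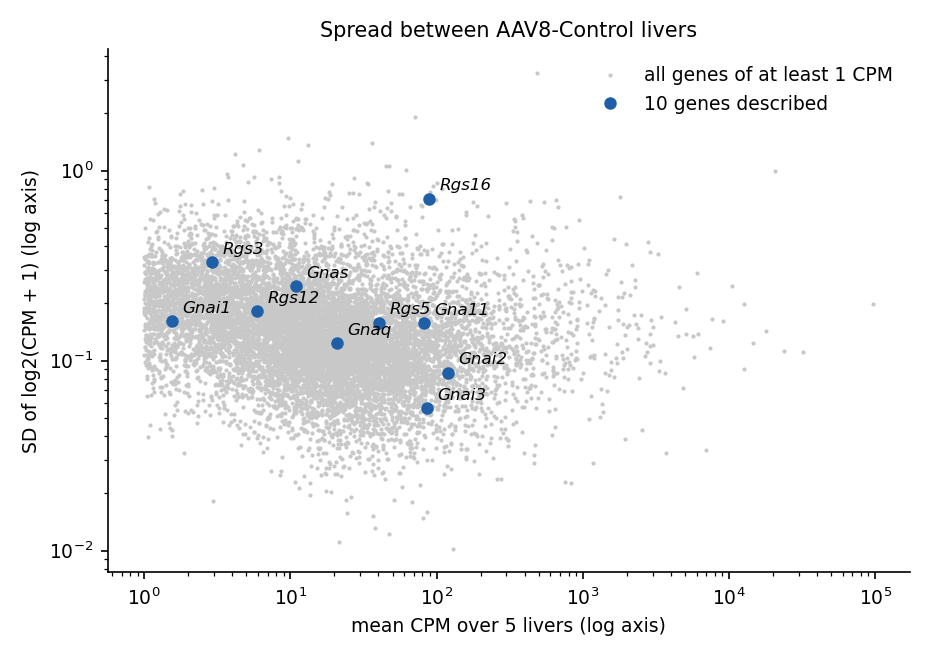
Spread between the 5 AAV8-Control livers as the SD of log2(CPM + 1) (y axis, log scale) against the mean CPM (x axis, log scale) for the 11041 genes of at least 1 CPM (grey) and the 10 genes described (blue). *Rgs16*, with an SD of 0.71, stands above most of the cloud, and *Gnai3*, with 0.056, lies in its lower part.

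The genes that work with these subunits were described from 7 lists. Beside the 10 genes, 117 listed genes were in the table, and 75 of them averaged 1 CPM or more. Among the other G alpha subunits, *Gna12* was at 111 ± 14.3 CPM, *Gna13* at 32.8 ± 2.74 CPM and *Gnat1*, which encodes transducin of the retina, at 32.1 ± 4.52 CPM (SD, n = 5). The Gq relative *Gna14* was at 8.12 to 10.7 CPM. *Gnb1* was at 80.2 ± 2.78 CPM and *Gnb2* at 60.7 ± 5.69 CPM among the beta subunits, and *Gng12* at 65.0 ± 1.72 CPM among the gamma subunits.

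Of 15 other regulators in the table, 12 averaged 1 CPM or more, and *Grk2*, which encodes a kinase of active receptors, was the highest per kilobase at 24.4 ± 3.08 CPM. It was followed by *Pdcl*, which encodes a phosducin-like protein, at 18.6 ± 0.630 CPM and *Gpsm2*, which encodes a Gi-binding modulator, at 17.5 ± 1.80 CPM (SD, n = 5). Of 26 effectors, 19 averaged 1 CPM or more, with *Prkaca* and *Prkar1a*, subunits of the cyclic AMP-dependent kinase, at 69.5 ± 9.53 and 119 ± 5.92 CPM, and *Prkar2a*, another subunit, at 102 ± 7.47 CPM. Of 33 receptors, 25 did. The highest per kilobase were *Gcgr*, the glucagon receptor that couples to Gs, at 214 ± 6.71 CPM, *Adra1b*, an adrenergic receptor that couples to Gq, at 101 ± 12.2 CPM, and *Agtr1a*, an angiotensin receptor that couples to Gq and Gi, at 71.1 ± 3.44 CPM (SD, n = 5). *Gcgr* ran from 205 to 220.3 CPM, a span of 1.07 times against 3.60 times for *Rgs16*, or 2.21 times for *Rgs16* without replicate 2.

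Abundant genes near *Rgs16* varied less between livers than it did. *Glul*, which encodes glutamine synthetase and starts 159.6 kb away, was at 745 ± 36.0 CPM. On the other side, *Dhx9*, which encodes an RNA helicase, was at 50.0 ± 4.10 CPM, and *Lamc1*, which encodes a laminin chain, at 19.7 ± 1.75 CPM (SD, n = 5). The next *Rgs* gene, *Rgs8*, starts at -87.3 kb and was at 0.0967 to 0.282 CPM, close to the level of 3 reads, which was 0.0845 to 0.154 CPM.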

How the data were processed

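Liver RNA of AAV8-Control *db/db* mice was sequenced as single reads from a poly-A library, by steps that as described do not mark strand. The authors aligned reads with STAR 2.0.4b to the Ensembl 76 assembly, which is GRCm38. They counted unique, unambiguous reads per gene with featureCounts 1.4.5, and deposited CPM values, a step the methods do not describe. The deposited table has 15236 lines for 15126 genes, of which 110 lines are repeats. CPM values were divided by the CPM of 1 read, and 100% came out whole within 0.05 reads. The labels give no batch or date. The other libraries of the series, every comparison with them and the tests planned for it are not reported here.

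From the 5 AAV8-Control libraries, the mean and SD of each gene were computed in CPM and in CPM per kilobase of joined exon, with pandas 2.3.3 and Python 3.11.15. The spread between livers is the SD of log2(CPM + 1) over the 11041 genes that averaged 1 CPM or more in these 5 livers, and its script was checked on simulated data. Positions and exon lengths came from GENCODE M21 (15123 genes matched) and promoters from RefSeq. The smallest level told from 0 was taken as 3 reads, 0.0845 to 0.154 CPM, for counting error only.

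The members and lists were chosen with earlier results of these data known. The rule planned for naming further genes used the tests left out, so the genes named beside the 10 are the 2 or 3 of each list with the highest CPM per kilobase, *Gna14*, and genes near *Rgs16*, all chosen after their values were seen. As alternatives, each library was left out in turn, 0.1 was added in place of 1 before taking logs, and low genes were kept or held to 5 CPM.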

Additional observations from a re-analysis of the deposited data

Results flagged for a closer look

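In *Gnai3*, AAV8-Control replicate 2 lay apart from the other livers by Dixon's test at the 95% level, at 80.0 CPM against 86.3 to 88.2 CPM. In *Rgs10*, the same library lay apart at 1.83 CPM, against 0.986 to 1.11 CPM in the others, from only 21 to 38 reads per library, so that counting error is part of this gap and was not estimated. These are 2 of 29 genes checked, and chance gives such a gap in about 1 in 20 groups.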

How the results depend on the processing

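The alternatives below were chosen after seeing the data. With each library left out, the mean of *Rgs16* ran from 71.8 CPM without AAV8-Control replicate 2 to 101 CPM without replicate 1, and its mean share of the CPM of all *Rgs* genes from 54.4 to 61.6%. Without replicate 2, the SD of *Rgs16* was 25.8 CPM and its span 2.21 times. The SD of *Rgs16* on log2(CPM + 1) ran from 0.54 without replicate 2 to 0.82 without replicate 4, and it was 0.72 with a pseudocount of 0.1. It was larger than that of 98.5 to 99.8% of the genes of at least 1 CPM with each library left out, of 99.7% of all genes with no filter on low values and of 99.6% with a filter of 5 CPM. No paired analysis was possible because the values come from 1 group, with no comparison between groups. The alternatives planned for tests were not run. Depth limits *Rgs10* (21 to 38 reads), *Rgs19* (24 to 60), *Gnai1* (30 to 61), *Rgs4* (31 to 127), *Rgs2* (36 to 102), *Rgs3* (48 to 101) and the *Rgs* genes under 1 CPM.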
